A study of Mus musculus with 6 samples.

Results

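Cytosolic ribosomal protein genes were examined in sorted mouse astrocytes, and 85 of the 45777 genes listed belonged to the set. Members were chosen by symbol, as protein-coding genes named Rps or Rpl with the number or letter of a cytosolic ribosomal protein, and then by measured values, since a count above 0 was needed in all 6 samples. The symbol rule matched 87 genes, of which 33 small subunit (Rps) and 52 large subunit (Rpl) members passed the count rule. Just inside it stood Rpl32l, with 9 to 20 counts per sample, and Rpl3l, with 41 to 69 counts. The 2 genes left out, Rpl10l and Rpl39l, had 0 counts in all 6 samples. At these depths 3 counts correspond to 0.0511 to 0.0571 CPM (counts scaled to a common library size), which is the limit that a count of 0 allows. These limits cover counting error only.

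RNA came from tdTomato+ cells sorted from brains of male Aldh1l1-CreERT2; tdTomato fl/fl mice, in which tamoxifen (5 injections of 75 mg/kg, given to both groups) switches on the red reporter in cells that use the Aldh1l1 promoter. The vehicle group received citrate buffer and was normoglycemic, and the STZ group received 150 mg/kg streptozotocin once at 8 weeks of age, a compound that destroys insulin-producing beta cells, and was hyperglycemic. Cells were collected 21 days later. Each group held 3 samples, each pooled from 3 mice, and GEO's labels give the genotype of all of them as WT. STZ acts on the whole animal, so an effect of glucose and an effect of the compound cannot be told apart here. The libraries held 52529048 to 58749115 counts.

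The cytosolic ribosome is built from a small and a large subunit, each a scaffold of ribosomal RNA carrying many small, mostly basic proteins. The small subunit reads the messenger RNA, the large subunit joins the amino acids, and a flexible stalk on the large subunit recruits the elongation factors. Many of these messages begin with a run of pyrimidines, the terminal oligopyrimidine (TOP) tract, through which mTOR signaling controls their translation. In brain cells, ribosomal protein mRNA is also carried into fine processes, astrocyte processes among them.

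The letters at the annotated start sites show how this set is built, and sequences are therefore given for members that span the range of responses described later. RefSeq start windows on GRCm38.p6 (250 bases before to 50 bases after a start) matched 65 of the 85 members, with 77 windows in all. In the following windows of 10 bases before the start and 20 bases from it, read 5′ to 3′, capitals mark an unbroken run of C and T that begins at the start itself.
Rps27rt (chr9:114982720-114982749, minus strand): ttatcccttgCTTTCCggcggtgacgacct
Rps27 (chr3:90213629-90213658, minus strand): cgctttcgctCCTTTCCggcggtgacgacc
Rps21 (chr2:180257369-180257398, plus strand): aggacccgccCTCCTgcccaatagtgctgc
Rpl38 (chr11:114668570-114668599, plus strand): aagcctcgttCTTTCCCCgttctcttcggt
Rpl35a (chr16:33056472-33056501, plus strand): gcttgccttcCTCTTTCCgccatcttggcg
Rps6 (chr4:86857348-86857377, minus strand): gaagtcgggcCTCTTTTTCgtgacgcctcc
Rpl15 (chr14:18270967-18270996, minus strand): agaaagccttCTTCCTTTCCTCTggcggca
Rpl32l (chr10:20208429-20208458, plus strand): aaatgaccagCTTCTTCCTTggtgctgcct
Rpl23 (chr11:97782420-97782449, minus strand): gtccggtcacgtggctgagtgggcggggcc

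A C at the start followed by 4 or more pyrimidines stood in 15 of the 77 member windows (19.5%), beside 2.20% of all 21296 windows of protein-coding genes. The run reached 13 bases in Rpl15. Rpl23 had no such run at its annotated start. The 15 members with a run had log2 fold changes (STZ over vehicle) from -0.47 to 0.72, with a median of 0.27. The share depended on where the run had to begin. A C followed by 4 pyrimidines that began within 10 bases of the annotated start stood in 41 member windows (53.2%), beside 31% of all windows. The CCGGAA core bound by ETS factors, searched on both strands, was present in 46.8% of member windows and 18.7% of all windows, and AAGATGG, a core of YY1 sites, in 15.6% and 6.22%. The GC box GGGCGG was in 58.4% and 46.2%, and TATAAA in 10.4% and 12.6%. These matches describe letters only.

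Members together took up a larger part of every STZ library than of any vehicle library. They held 0.336%, 0.425% and 0.437% of all counts in the 3 vehicle samples and 0.477%, 0.473% and 0.493% in the 3 STZ samples. The groups did not overlap, but the gap between vehicle 3 and the lowest STZ sample was smaller than the gap between vehicle 1 and vehicle 3. The mean was 0.399% ± 0.0553 (SD, n = 3) in vehicle and 0.481% ± 0.0105 (SD, n = 3) in STZ, a ratio of 1.20. On the length-corrected TPM scale the shares were 0.920%, 1.10% and 1.16% in vehicle and 1.25%, 1.25% and 1.29% in STZ. Small subunit members held 0.137% ± 0.0197 of counts in vehicle and 0.171% ± 0.00331 in STZ, and large subunit members 0.262% ± 0.0362 and 0.309% ± 0.00724 (SD, n = 3 each), and in both cases the groups did not overlap. In pooled RNA, more cells rich in these messages and more of the messages per cell cannot be told apart.

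**Figure D1:**
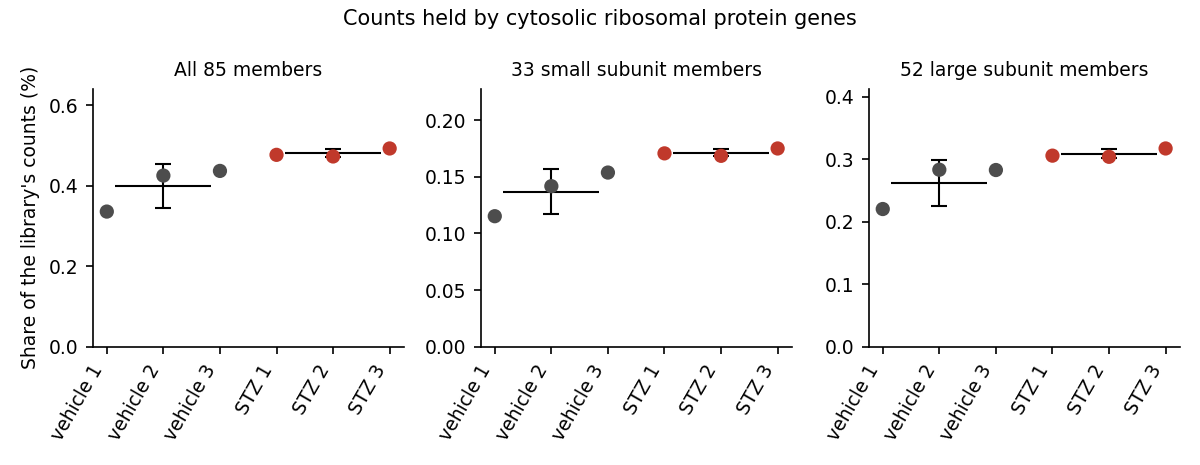
Share of each library's counts (percent, axis from 0) held by all 85 members, the 33 small subunit members and the 52 large subunit members. Gray points are vehicle and red points STZ samples, and bars give the mean ± SD of 3 samples. Vehicle 1 was lowest in each panel and every STZ sample lay above every vehicle sample.

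Vehicle 1 set much of that spread. Relative to the mean log2 CPM of the 3 vehicle samples, the median member stood at -0.23 in vehicle 1, 0.07 in vehicle 2, 0.17 in vehicle 3, 0.21 in STZ 1, 0.24 in STZ 2 and 0.30 in STZ 3. The median over all genes at 1 CPM or more stayed between -0.01 and 0.01 in the same samples. Vehicle 1 had the lowest level of 80 of the 85 members, while STZ 3 had the highest level of 45. All 3 STZ samples exceeded vehicle 1 for 83 members, vehicle 2 for 63 and vehicle 3 for 49. The median coefficient of variation of a member was 16.0% among vehicle samples and 4.53% among STZ samples, beside 10.2% and 10.3% for the 16169 other genes at 1 CPM or more.

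**Figure D2:**
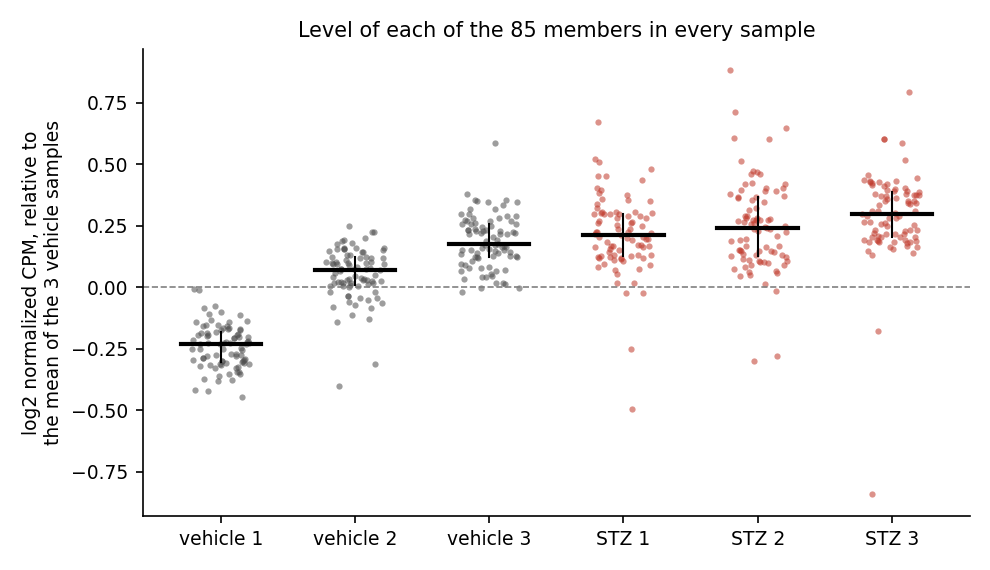
Level of each of the 85 members in every sample, as log2 normalized CPM relative to the mean of the 3 vehicle samples. Each point is a member, thick bars are medians and thin bars interquartile ranges. The medians were -0.23, 0.07 and 0.17 in vehicle (gray) and 0.21, 0.24 and 0.30 in STZ (red).

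Gene by gene, no member passed the threshold for a change between STZ and vehicle (edgeR's quasi-likelihood test, Benjamini-Hochberg adjusted p under 0.05 over all 22337 genes tested and a fold change over 1.5). The percentage of all genes that passed was 0.0224%, or 5 genes, and the same 5 genes (0.0224%) made up all those at an adjusted p under 0.05. The smallest adjusted p of a member was 0.252, for Rpl23. At an unadjusted p under 0.05, 23 members were higher in STZ, beside 5.63% of all genes, and 0 members were lower, beside 5.65%. DESeq2 gave 1 member at an adjusted p under 0.05, Rpl23, beside 1.71% of all genes. All 3 STZ samples lay above all 3 vehicle samples for 41 members (48.2%), beside 8.64% of all genes, and below them for 0.

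The direction was shared by nearly all members although single genes did not pass. The log2 fold change was positive for 83 of 85 members, with a median of 0.23 (1.17-fold) and an interquartile range of 0.15 to 0.32, beside a median of 0.01 and 51.9% positive over all genes tested. All 33 small subunit members had a positive value (median 0.30), and 22 of them (66.7%) did not overlap between groups, beside 8.64% of all genes. Of the 52 large subunit members 50 had a positive value (median 0.18), and 19 (36.5%) did not overlap in that direction, beside the same 8.64%. Members share the same 6 libraries, so these counts are not of independent genes.

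**Figure D3:**
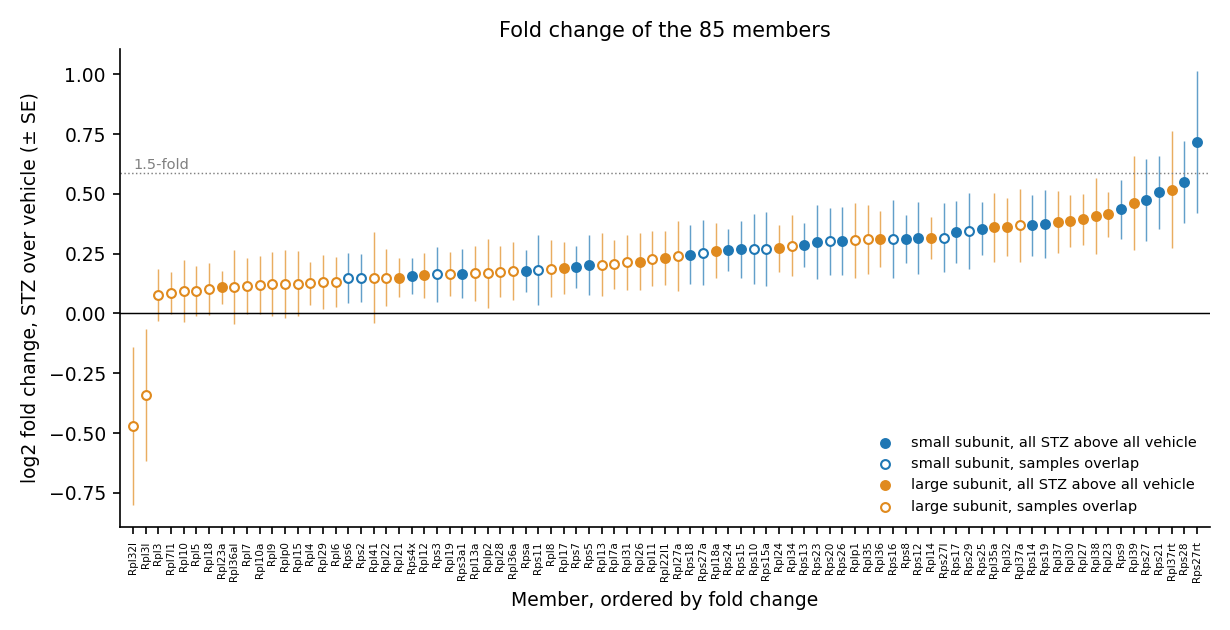
log2 fold change (STZ over vehicle, edgeR) with its standard error for the 85 members in rank order, small subunit in blue and large subunit in orange. Filled points mark the 41 members whose 3 STZ samples all lay above the 3 vehicle samples, and the dotted line is a 1.5-fold change, which only Rps27rt exceeded.

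The count of single genes turned on vehicle 3. Without it, 46 members were higher at an unadjusted p under 0.05 in edgeR (7.19% of all genes) and the median log2 fold change was 0.32. DESeq2 without vehicle 3 then gave 21 members at an adjusted p under 0.05 (3.83% of all genes), 6 of them over 1.5-fold (3.09%), a fit chosen after seeing the data. Those 6 were Rps27, Rps21, Rpl38, Rps28, Rps27rt and Rpl39. Without vehicle 1, 14 members were higher at an unadjusted p under 0.05 in edgeR (4.5% of all genes), 74 were positive and the median was 0.12. Between single samples and the STZ mean, the median member was 0.50 higher in log2 units than vehicle 1, 0.19 higher than vehicle 2 and 0.07 higher than vehicle 3.

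Of the 8 members at or above 1 CPM with the highest log2 fold changes, 5 belong to the small subunit (Rps27rt, Rps28, Rps21, Rps27 and Rps9) and 3 to the large (Rpl37rt, Rpl39 and Rpl23). Rps28 (chr17:33823036-33824562), a small protein near the mRNA exit of the small subunit, stood at 5.88, 7.53 and 8.71 CPM in vehicle and 10.4, 11.1 and 10.9 CPM in STZ. All STZ samples were above all vehicle samples, and the log2 fold change was 0.55 ± 0.17 (SE; edgeR adjusted p = 0.339). Rps21 (chr2:180257379-180258444) measured 9.46, 10.6 and 13.5 CPM in vehicle and 15.1, 15.8 and 16.8 CPM in STZ, a log2 fold change of 0.51 ± 0.15 (edgeR adjusted p = 0.326). Its groups did not overlap either.

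Rps27 (chr3:90212667-90213648), a zinc-binding protein of the small subunit, had 16.3, 17.8 and 25.3 CPM in vehicle and 25.7, 30.4 and 26.4 CPM in STZ. Vehicle 3 stood just under STZ 1, so that the groups did not overlap by a small margin, and the log2 fold change was 0.48 ± 0.17 (edgeR adjusted p = 0.389). Rps9 (chr7:3703954-3706897), which is needed for early folding of the small subunit RNA, was the member with the highest mean FPKM (fragments scaled for transcript length and library size), 202 ± 44 (SD, n = 6). Its CPM was 123, 118 and 152 in vehicle and 176, 158 and 198 in STZ, without overlap (log2 fold change 0.44 ± 0.12, edgeR adjusted p = 0.307).

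Among large subunit proteins, Rpl23 (chr11:97777526-97782439) had the clearest separation relative to its spread. It measured 23.7, 27.0 and 28.7 CPM in vehicle and 33.8, 36.6 and 35.5 CPM in STZ. The means were 26.5 ± 2.5 and 35.3 ± 1.4 CPM (SD, n = 3), and the log2 fold change was 0.41 ± 0.09. The adjusted p was 0.252 in edgeR and 0.0404 in DESeq2, so that the call depended on the tool. Rpl23 is known, with Rpl5 and Rpl11, as a ribosomal protein that can bind the p53 regulator Mdm2. Rpl5, which with Rpl11 carries 5S ribosomal RNA into the large subunit, was at 67.0, 88.3 and 80.6 CPM in vehicle and 82.2, 81.8 and 87.9 CPM in STZ, a log2 fold change of 0.09 ± 0.11 with overlapping groups. Rpl11 had a log2 fold change of 0.23 ± 0.12, also with overlap.

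Rpl39 (chrX:37082518-37085222), a very short protein that lines the exit tunnel, had 6.27, 8.32 and 10.4 CPM in vehicle and 11.4, 12.4 and 10.7 CPM in STZ. The groups did not overlap, by a margin of vehicle 3 to STZ 3 that was small beside the spread (log2 fold change 0.46 ± 0.20, edgeR adjusted p = 0.443). At the lower end, Rpl3, a core protein of the peptidyl transferase region, had 129, 169 and 158 CPM in vehicle and 165, 150 and 166 CPM in STZ. Its groups overlapped, and the log2 fold change was 0.08 ± 0.11. The other members of the lower end with at least 1 CPM were Rpl7l1, Rpl10, Rpl5, Rpl18, Rpl23a, Rpl36al and Rpl7, with log2 fold changes from 0.08 to 0.11. Of these, Rpl23a did not overlap between groups (63.8, 65.0 and 64.2 CPM in vehicle, 66.8, 66.5 and 74.7 CPM in STZ).

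Among the stalk genes, Rplp1 lay above the median member and the others below it. Rplp0, the base of the stalk, was at 113, 169 and 158 CPM in vehicle and 160, 152 and 166 CPM in STZ, with overlap and a log2 fold change of 0.12 ± 0.14. Its partners had log2 fold changes of 0.31 ± 0.16 (Rplp1) and 0.17 ± 0.14 (Rplp2), both with overlap. The FPKM levels of the 3 stalk genes were close, at 106 ± 15 for Rplp0, 91.7 ± 17.2 for Rplp1 and 76.2 ± 11.5 for Rplp2 (SD, n = 6). Rpsa, also known as a laminin receptor, measured 67.5, 81.3 and 80.2 CPM in vehicle and 87.7, 87.2 and 84.2 CPM in STZ (log2 fold change 0.18 ± 0.09), without overlap. Rps27a, made as a fusion with ubiquitin, measured 30.4, 40.3 and 44.0 CPM in vehicle and 43.1, 45.5 and 48.2 CPM in STZ (log2 fold change 0.25 ± 0.14), with overlap.

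On the per-length scale the members covered a wide range. Mean FPKM over the 6 samples ran from 0.365 for Rpl32l to 202 for Rps9, with a median of 58.4. After Rps9 came Rpl13 (183 ± 27), Rpl41 (159 ± 30), Rps14 (137 ± 26) and Rpl4 (123 ± 12; SD, n = 6), and the neighbors in this order differed by less than their spread. The lowest were Rpl32l, Rpl3l (0.534 ± 0.095), Rpl37rt (2.93 ± 0.77), Rps15a (3.77 ± 0.66) and Rps27rt (5.22 ± 1.80). Rps15a is a core gene whose low FPKM goes with a transcript length of 5462 bases implied by the counts and FPKM together, the longest of the set. Whether that length matches an annotated transcript was not checked. The level of Rps15a in CPM reached 24.9 in STZ 3.

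Paralogs and retrocopies were compared with their core genes by FPKM within each sample. Rpl22l1, which can replace Rpl22 in the large subunit, was the more abundant of that pair. It stood at 343% ± 25 of Rpl22 in vehicle and 360% ± 30 in STZ (SD, n = 3), with overlap. Rpl36al was at 225% ± 29 and 216% ± 26 of Rpl36a, and Rps27l, a p53-responsive relative of Rps27, at 136% ± 7 and 125% ± 18 of Rps27, also with overlap. Rpl7l1 was at 32.5% ± 2.9 and 31.6% ± 1.8 of Rpl7. For Rpl22l1, Rpl36al and Rpl7l1 the difference in this proportion between groups was smaller than the SD of either group. For Rps27l it was smaller than the SD in STZ but larger than that in vehicle.

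The muscle paralog Rpl3l and Rpl32l were the only members with negative log2 fold changes in edgeR with TMM scaling. Rpl3l had 0.765, 1.16 and 1.20 CPM in vehicle and 0.726, 0.842 and 0.902 CPM in STZ (log2 fold change -0.34 ± 0.28, edgeR adjusted p = 0.663), with overlap. As a percentage of Rpl3 it was 0.520, 0.582 and 0.629 in vehicle and 0.427, 0.458 and 0.435 in STZ, and these did not overlap. Rpl32l had 0.205, 0.289 and 0.349 CPM in vehicle and 0.231, 0.223 and 0.153 CPM in STZ (log2 fold change -0.47 ± 0.33, edgeR adjusted p = 0.614), again with overlap, on 9 to 20 counts. It was 0.576% ± 0.053 of Rpl32 in vehicle and 0.318% ± 0.069 in STZ (SD, n = 3), without overlap.

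Rps27rt carried the highest fold change of the set, and which gene its reads came from is in doubt. This intronless copy of Rps27 lies at chr9:114982366-114982739, inside the span of Osbpl10. Its CPM was 1.32, 1.14 and 2.25 in vehicle and 2.39, 2.77 and 2.60 in STZ, a log2 fold change of 0.72 ± 0.30 (edgeR adjusted p = 0.431) that did not overlap. From the CTTTCC run onward, 38 bases are shared by the RefSeq windows of both genes, of which the beginning is printed above, and 296 of the 325 windows of 50 bases in its GENCODE transcript (91.1%) also occur in Rps27. Reads of the copy and of Rps27 can therefore be split only by the remaining stretches. It stood at 8.24% ± 1.73 of the FPKM of Rps27 in vehicle and 10.2% ± 0.9 in STZ, with overlap. The same measure found 0 shared windows between Rpl3l, Rpl7l1, Rpl22l1, Rpl36al or Rps27l and their core genes. It was not taken for Rpl37rt and Rpl32l, so sharing of reads with Rpl37 and Rpl32 was not checked.

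Rpl37rt, a retrotransposed copy of Rpl37 by its name, had 1.72, 1.39 and 2.15 CPM in vehicle and 2.47, 2.82 and 2.23 CPM in STZ. The groups were separated by little (log2 fold change 0.52 ± 0.24, edgeR adjusted p = 0.477), and it ran from 8.66% to 11.0% of Rpl37 in vehicle and from 9.70% to 11.9% in STZ. Beyond these, 223 pseudogene rows named after 56 of the members held counts equal to 2.67% to 3.18% of the members' counts. Adding them to their parent genes left the median at 0.23 and the counts of members unchanged. Rows outside the set that are described as ribosomal proteins S6 and L27 held 552 to 939 and 78 to 194 counts per sample.

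**Figure D4:**
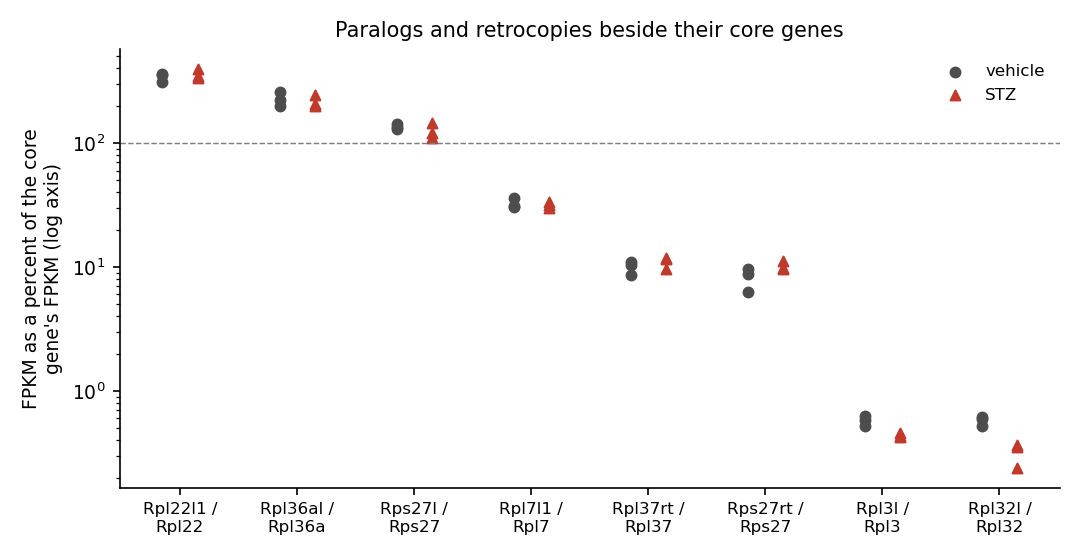
FPKM of 8 paralogs or retrocopies as a percentage of the FPKM of the core gene in the same sample (log axis). Gray circles are the 3 vehicle and red triangles the 3 STZ samples, and the dashed line marks equal levels. Only Rpl3l and Rpl32l showed no overlap between groups, both lower in STZ.

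The size of the difference went with transcript length. Across the 85 members, Spearman's rho between log2 fold change and implied length was -0.55, and that with abundance was -0.45, as descriptions over genes that share libraries. The 29 shortest members (359 to 619 bases) had a median log2 fold change of 0.31, the next 28 (620 to 1003 bases) 0.26 and the 28 longest (1010 to 5462 bases) 0.15. The number without overlap was 20, 14 and 7 in these classes, beside 8.64% of all genes. That share also varied with length among other protein-coding genes at 1 CPM or more. It ran from 11.3% to 19.0% in the length classes under 1500 bases, and was 5.50% from 3000 to 5000 bases and 5.30% above 5000 bases. Without the 8 paralogs and retrocopies rho was -0.56 over 77 members.

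Other protein-coding genes of the same length, at 1 CPM or more, moved the same way by less. Between 500 and 750 bases the median log2 fold change was 0.28 for 27 members and 0.17 for 222 other genes, and 18 of the members against 16.7% of the other genes did not overlap. Between 750 and 1000 bases the medians were 0.20 for 15 members and 0.14 for 353 others, and between 1000 and 1500 bases 0.17 for 18 members and 0.09 for 1104 others. Short genes in general were lowest in vehicle 1: the 222 others of 500 to 750 bases had a median log2 deviation of -0.23 there, 0.19 in vehicle 3 and 0.10 to 0.25 in STZ. When a smooth trend on length was taken out of each sample, the median of the members was 0.07, beside -0.04 for all genes. Then 61 members were positive, 5 were higher at an unadjusted p under 0.05 (4.11% of all genes) and 24 did not overlap (5.85%).

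**Figure D5:**
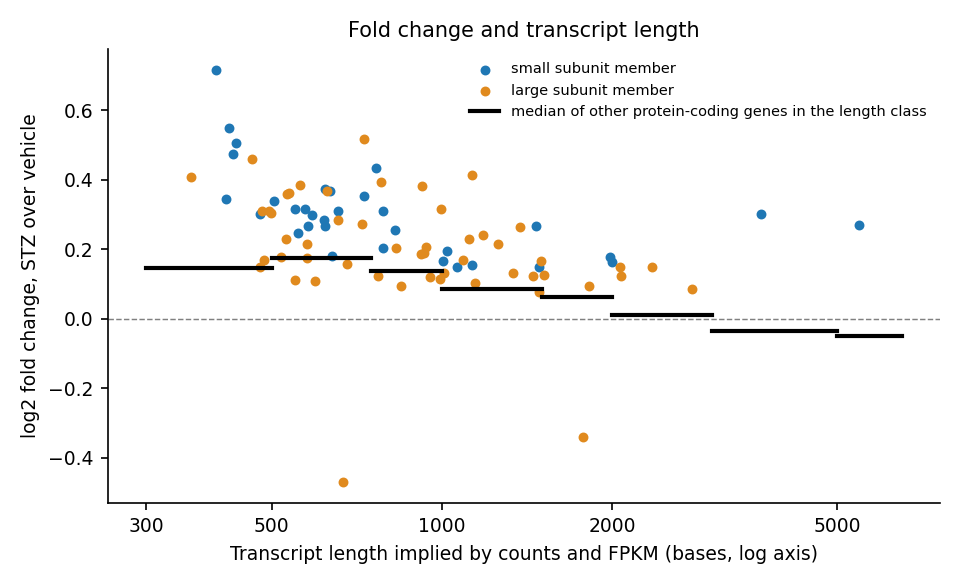
log2 fold change (STZ over vehicle) of each member against the transcript length implied by its counts and FPKM (bases, log axis). Black bars are medians of other protein-coding genes in 8 length classes. In every class the median of the members at 1 CPM or more lay above that of the other genes, at 0.35 and 0.15 under 500 bases and at 0.14 and 0.01 from 2000 to 3000 bases. The classes from 1500 to 2000 and from 2000 to 3000 bases held only 4 members each. Those from 3000 to 5000 and above 5000 bases held 1 each, so their value is that of a single gene.

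With the shift of the median member removed from every sample, 7 members had all STZ samples above all vehicle samples (Rps27rt, Rps28, Rps21, Rpl27, Rps19, Rps14 and Rpl35a) and 5 had all below (Rpl3l, Rpl32l, Rpl18, Rpl10 and Rpl9). On this scale 1.89% of all genes lay above and 23.1% below, and the centering itself places members on both sides, so that nothing is read from these counts. The first group had values of 0.11 to 0.52 relative to the median member and the second of -0.73 to -0.12, in log2 units. Rps19 and Rps14, both mutated or lost in human anemias of failed red cell production, had log2 fold changes of 0.37 ± 0.14 and 0.37 ± 0.13. Rps19 was at 37.1, 51.5 and 55.7 CPM in vehicle and 60.6, 62.6 and 63.7 CPM in STZ. The 85 members lay on 19 chromosomes, 14 of them on chromosome 7 and 4 on the X (Rpl10, Rpl36a, Rpl39 and Rps4x). snoRNA genes lay inside 30 of them, and 20 overlapped another gene, among the named ones Rpl18 (with Sphk2), Rpl23a (Tlcd1), Rpl5 (Dipk1a) and Rpl32l (Map7). Whether strand was used in counting is unknown, and overlapping genes may have exchanged reads.

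Fau and Rack1, ribosomal proteins outside the naming rule, had log2 fold changes of 0.25 ± 0.14 and 0.11 ± 0.09. Fau, made as a fusion with a ubiquitin-like protein, stood at 39.5, 52.8 and 58.4 CPM in vehicle and 59.2, 58.2 and 61.6 CPM in STZ, with overlap. Of 78 mitochondrial ribosomal proteins, which serve the separate ribosome of mitochondria, 63 were positive with a median of 0.09. At an unadjusted p under 0.05, 6 of them were higher and 0 lower, beside 5.63% and 5.65% of all genes. Their median implied transcript length was 1197 bases, and with a trend on length removed their median log2 fold change was -0.053. Mrps18c and Mrpl41 had the largest absolute values at 1 CPM or more and do not stand for the list. Mrps18c had 15.7, 15.3 and 17.7 CPM in vehicle and 22.1, 23.6 and 23.1 CPM in STZ (log2 fold change 0.50 ± 0.10, adjusted p = 0.207 in edgeR and 0.00805 in DESeq2), and Mrpl41 had 0.49 ± 0.11 (0.232 and 0.0169).

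Other parts of the translation apparatus had smaller medians than the members. The median log2 fold change was 0.04 over 38 initiation factors, 0.05 over 14 elongation and release factors, 0.11 over 20 TOP messages that code for no ribosomal protein of the set, 0.08 over 45 ribosome assembly factors and 0.05 over 12 nascent chain and translocon partners. These lists hold longer transcripts than the members, with median implied lengths of 2597, 2975, 1781, 2498 and 1390 bases in the same order. With the length trend removed, their medians were -0.008, -0.005, -0.005, -0.019 and -0.050, beside 0.072 for the members. At an unadjusted p under 0.05, 5 initiation factors were higher and 1 was lower (Eif4g2, -0.28 ± 0.09). In the other lists 0, 2, 2 and 2 genes were higher and 0 lower, in the same order. Over all genes at that p, 5.63% were higher and 5.65% lower. Subunits of oxidative phosphorylation, whose median implied length (749 bases) is close to that of the members (771 bases), had a median of 0.04 over 80 genes, with 2 higher and 1 lower. With the length trend removed, the median of these subunits was -0.13. In these lists 0 genes had an adjusted p under 0.05 in edgeR, beside 0.0224% of all genes. DESeq2 gave 2 mitochondrial ribosomal proteins and 1 oxidative phosphorylation subunit, beside 1.71% of all genes.

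Among 26 genes that control ribosomal protein messages, the median log2 fold change was 0.04, beside 0.01 over all genes tested, with 16 positive and 10 negative. At an unadjusted p under 0.05 in edgeR, 4 were higher and 1 was lower, beside 5.63% and 5.65% of all genes. Mycl, Eif4ebp1, Myc and Tsc2 had the largest absolute values at 1 CPM or more and do not stand for the list. Mycl, a member of the Myc family that drives growth genes, had 9.88, 8.81 and 10.9 CPM in vehicle and 25.9, 19.6 and 14.4 CPM in STZ. The groups did not overlap (log2 fold change 1.02 ± 0.21, adjusted p = 0.224 in edgeR and 0.000545 in DESeq2). Myc itself was at 12.1, 11.4 and 10.9 CPM in vehicle and 13.4, 18.2 and 15.9 CPM in STZ (0.46 ± 0.14). Eif4ebp1, the translation repressor released by mTOR, had 0.52 ± 0.17, and Tsc2, an inhibitor upstream of mTOR, had -0.31 ± 0.08, with 50.8, 50.6 and 46.1 CPM in vehicle and 42.1, 37.3 and 39.6 CPM in STZ. For both genes the groups did not overlap, and neither passed the adjusted threshold in edgeR (adjusted p = 0.356 and 0.288).

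The sorted cells carried all 10 astrocyte markers, with a summed FPKM of 6085 to 7071 in vehicle and 6395 to 7018 in STZ. Of these 10 markers, 6 had negative log2 fold changes (median -0.11). For 3 of them all STZ samples lay below all vehicle samples, beside 2200 of the 22337 genes tested. At an unadjusted p under 0.05 in edgeR, 2 were lower and 1 was higher, beside 5.65% and 5.63% of all genes. In DESeq2, 1 had an adjusted p under 0.05, beside 1.71% of all genes. Most markers of vascular cells had positive log2 fold changes, with medians larger than that of the members (0.23). All 15 endothelial markers were positive (median 1.14), 12 of them at an unadjusted p under 0.05 in edgeR (5.63% of all genes). Of these 15 markers, 7 did not overlap between groups (8.64% of all genes) and none was at 0. In DESeq2, 1 of them had an adjusted p under 0.05 (1.71% of all genes). Their summed FPKM was 35.8, 52.4 and 128 in vehicle and 245, 184 and 132 in STZ, so that vehicle 1 was lowest and vehicle 3 nearest to STZ, as for the members. Within the STZ group the order was the opposite, since STZ 3 had the lowest endothelial sum and the highest median member. Of 8 pericyte and smooth muscle markers 7 were positive (median 0.95), with sums of 36.2 to 57.2 in vehicle and 55.8 to 76.2 in STZ. Among them 4 did not overlap between groups, 4 were higher at an unadjusted p under 0.05 in edgeR and 4 had an adjusted p under 0.05 in DESeq2. The shares of all genes were 8.64%, 5.63% and 1.71% in the same order. Blood cell markers summed to 147, 157 and 845 in vehicle and 1135, 1205 and 549 in STZ, with 7 of 9 tested positive. At an unadjusted p under 0.05 in edgeR, 0 of these 9 were higher and 1 was lower (5.63% and 5.65% of all genes). The groups overlapped for all 9. Choroid plexus and ependyma markers, at 4300 to 12935 in vehicle and 7030 to 11808 in STZ, microglial markers, at 446 to 623 and 452 to 633, oligodendrocyte lineage markers, at 310 to 763 and 334 to 1124, and neuron markers, at no more than 49.0 and 54.1, overlapped between groups. Messages of the mitochondrial genome took 1.15% to 1.19% of counts in vehicle and 1.22% to 1.35% in STZ. Rows of ribosomal RNA took 0.0797%, 0.0835% and 0.0903% in vehicle and 0.117%, 0.110% and 0.0930% in STZ, without overlap, with vehicle 1 lowest and vehicle 3 close to STZ 3. The part of these cells, of these RNA classes and of transcript length in the members' difference was not tested.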

How the data were processed

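The authors deposited 1 table of gene-level read counts, FPKM and TPM values for 6 samples. Reads were aligned by the authors to mm10 with HISAT2 and transcripts assembled with StringTie (versions 2.1.0 and 2.1.3b in the submitters' processing notes, which also name Trimmomatic 0.38). The deposited counts are not normalized, while the deposited FPKM and TPM values are scaled by the authors for transcript length and depth. The labels name a SMART-Seq mRNA kit and the study's methods also a TruSeq kit. Use of strand in counting is not given in the sources used here. Genes with 0 counts in any sample were left out of the tests. All 85 members matched RefSeq genes (GRCm38.p6).

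Counts were tested with edgeR 4.0.16 (R 4.3.3; TMM scaling, quasi-likelihood test, group as the only term, 22337 genes with a count in every sample, Benjamini-Hochberg adjustment over all of them), after a check on simulated counts. CPM values are counts scaled by TMM library size, and non-overlap was read on them. DESeq2 1.42.0, limma 3.58.1 on log2(TPM + 1) and log2(TPM + 0.1), other scalings and filters, a replicate block, removal of a transcript-length trend (a spline with 5 degrees of freedom per sample on log2 CPM, prior count 2), added pseudogene rows and leaving out each sample were tried as alternatives. The length of a transcript was implied by counts and FPKM, and can differ from that of an annotated transcript. It was 550 bases for Rpl36al and 529 for Rpl22l1, whose GENCODE transcripts have 1276 and 552 bases. Depth was 52529048 to 58749115 counts per library.

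The named members were the paralogs and retrocopies with their core genes, Rplp0, Rplp1, Rplp2, Rpsa and Rps27a, the 5 highest and 5 lowest by mean FPKM, the 8 highest and 8 lowest log2 fold changes at 1 CPM or more, and those nearest the count rule, and from each other list the genes with the largest absolute log2 fold changes at 1 CPM or more. Rpl38, Rpl27, Rpl11, Rps19, Rpl9, Rpl35a, Rps6, Rpl15 and Rps4x were named after their values were seen. A gene of the list of other ribosomal proteins is not reported here. The members and lists were chosen with earlier results of these data known. Same-numbered samples of the 2 groups are not the same animals. The p-values rest on the spread between 3 pools per group.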

Additional observations from a re-analysis of the deposited data

How the results depend on the processing

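Under every alternative fitted with edgeR or limma, 0 members were called and 0 had an adjusted p under 0.05. At an unadjusted p under 0.05, 23 were higher in the edgeR fit reported above (5.63% of all genes), and this count varied between alternatives. DESeq2 gave 1 member at an adjusted p under 0.05, and DESeq2 with 1 sample left out in turn, chosen after seeing the data, gave 0 to 21 such members, 0 to 6 called members and 13 to 47 members higher at an unadjusted p under 0.05 (15 without STZ replicate 3). The upper end of each range came without vehicle replicate 3, and the 1 member without vehicle replicate 1 was Rpl23. Members higher at an unadjusted p under 0.05 numbered 45 with total counts only, 37 with limma on log2(TPM + 1) and 5 with the transcript-length trend removed. The share of all genes was 4.11% for the last setting and is not given here for total counts and limma, so 45 and 37 lack a background. With that trend removed, 24 members did not overlap (5.85% of all genes) and the median log2 fold change was 0.072. Leaving out 1 sample in edgeR gave 14 to 46 members higher at an unadjusted p under 0.05, 40 to 62 without overlap, 74 to 83 positive and a median log2 fold change of 0.12 to 0.32. The lowest count at that p and the lowest median came without vehicle replicate 1 (4.5% of all genes at that p). The highest came without vehicle replicate 3 (7.19%). Without STZ replicate 2 the count at that p was also 14. With 1 sample left out, non-overlap is easier to reach than with all 6. The 40 to 62 members without overlap therefore cannot be set against the 41 of the full data, and their share of all genes is not given here.

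Named members changed sign in 2 alternatives. With the length trend removed, the log2 fold change was -0.0901 for Rpl10, -0.0590 for Rpl18, -0.105 for Rpl23a, -0.0551 for Rpl3, -0.0241 for Rpl36a, -0.0859 for Rpl36al, -0.0051 for Rpl4, -0.0352 for Rpl41, -0.0050 for Rpl5, -0.0619 for Rpl7, -0.0057 for Rplp0, -0.0209 for Rplp2, -0.0615 for Rpl9 and -0.0159 for Rps4x. With 1 sample left out, it ran from -0.0513 to 0.163 for Rpl10, -0.0327 to 0.144 for Rpl3, -0.0460 to 0.197 for Rpl36al, -0.0459 to 0.321 for Rpl41, -0.0120 to 0.173 for Rpl5, -0.0030 to 0.200 for Rpl7, -0.0229 to 0.222 for Rpl9, -0.0262 to 0.241 for Rpl15 and -0.0348 to 0.225 for Rplp0, the lowest value in each case without vehicle replicate 1. The cause was not tested. With the replicate number as a block, 0 members were called, 31 were higher at an unadjusted p under 0.05 and the median was 0.24. The share of all genes at that p is not given here for the block, so 31 lacks a background. The deviations of same-numbered samples correlated at -0.10, -0.16 and -0.18, so the numbers did not pair the samples, and a paired reading has no basis here. Low counts limit Rpl32l and Rpl3l.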
